A study of Homo sapiens with 14 samples.

Results

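The genes described here encode the proteins of the cytosolic ribosome. They were chosen by symbol, as protein-coding genes on the 22 autosomes and X that begin with RPL or RPS followed by a number, A, P or SA, leaving out the RPS6 kinase genes and RPS19BP1. The rule gave 89 of 19970 protein-coding genes in GENCODE release 44 on hg38: 46 large-subunit genes (with RPLP0, RPLP1 and RPLP2 of the P stalk), 31 small-subunit genes, 8 paralogs, 3 readthrough genes that join a ribosomal protein gene to its neighbour, and RPSA2, a second copy of RPSA.

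The libraries came from TC-32, an established Ewing sarcoma cell line that carries the EWSR1::FLI1 fusion, and asked where the fusion binds and which histone marks lie there. All 14 libraries were made by CUT&RUN, in which an antibody directs a nuclease to its target and the released DNA is sequenced, on wild-type cells that received no treatment. FLI1 was targeted in sets A and B with 2 replicates apiece, H3K27ac (found on active chromatin) in set A with 2, H3K9me3 and H3K27me3 (found on repressed chromatin) in set B with 2 apiece, and IgG as the control with 2 in each set. Every group is thus the same line in the same state, with a yeast DNA spike-in, and the labels neither explain the sets nor say whether replicates came from separate cultures. The FLI1 antibody reads FLI1 sequence and does not by itself tell the fusion from FLI1. NR0B1 and NKX2-2, loci that the fusion is known to bind in Ewing sarcoma cells, held 5 to 7 and 5 to 10 FLI1 regions within 10 kb in each of the 4 FLI1 lists.

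The ribosome is built from a large and a small subunit, most of whose proteins are made in equal numbers and joined to ribosomal RNA in the nucleolus. Their messages typically begin with a terminal oligopyrimidine (TOP) run, a C followed by further C or T bases, which ties their translation to mTOR signalling. Their promoters are compact, mostly lie in CpG islands, and have long been known to hold recognition sequences of ETS factors, the family to which FLI1 belongs.

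The start regions of the 5 genes with the highest FLI1 ranks, given below, all begin with a pyrimidine run, while the printed bases of RPS19 and RPL28 hold no ETS core. Each runs from 80 bases before to 11 after the first transcribed base of the MANE Select transcript (the one transcript per gene on which the reference annotations settle), which is the 81st base printed. Capitals mark the pyrimidine run at the start and every CCGGAA or TTCCGG, the 6-letter ETS core on either strand, and runs of capitals that touch or overlap are joined. RPL23, which had no FLI1 region in any list, is shown beside them. It does not begin with such a run at the annotated base but holds the core, while RPL14, also in no list, does begin with a run, of 6 bases.
RPS19, chr19:41860175-41860266, plus strand: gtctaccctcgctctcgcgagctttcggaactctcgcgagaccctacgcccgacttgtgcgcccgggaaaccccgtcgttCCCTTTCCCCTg
RPL28, chr19:55385852-55385943, plus strand: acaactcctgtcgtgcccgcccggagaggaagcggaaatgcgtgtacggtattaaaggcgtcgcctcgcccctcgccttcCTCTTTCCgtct
RPS14, chr5:150449728-150449819, minus strand: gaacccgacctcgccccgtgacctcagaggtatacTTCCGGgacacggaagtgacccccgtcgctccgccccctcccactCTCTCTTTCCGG
RPS18, chr6:33271995-33272086, plus strand: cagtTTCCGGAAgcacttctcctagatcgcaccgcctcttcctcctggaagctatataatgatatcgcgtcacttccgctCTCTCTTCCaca
RPL37, chr5:40835211-40835302, minus strand: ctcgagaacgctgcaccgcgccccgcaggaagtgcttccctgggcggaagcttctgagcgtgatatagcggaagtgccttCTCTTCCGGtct
RPL23, chr17:38853710-38853801, minus strand: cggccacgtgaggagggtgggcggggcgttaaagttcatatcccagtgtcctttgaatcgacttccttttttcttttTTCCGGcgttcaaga

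FLI1 regions lay at most ribosomal protein starts. Within 1 kb of the 5′ end of the gene, a region was listed for 66, 69, 71 and 67 of the 89 genes in set A replicate 1, set A replicate 2, set B replicate 1 and set B replicate 2, the order kept below, which is 74.2, 77.5, 79.8 and 75.3%. The same shares over all coding genes were 40.7, 40.4, 49.7 and 46.3%. The mean was 76.7% ± 2.49 (SD, n = 4 libraries) for ribosomal protein genes and 44.3% ± 4.50 for all coding genes, and the lowest library of the first lay above the highest of the second. Among the 12005 coding genes with a CpG-rich start (a ratio of observed to expected CpG of at least 0.6 over 1000 bases), to which 83 of the 89 genes belong, the shares were 58.6, 57.9, 71.0 and 66.4%. The genes were chosen with results of these libraries known, so counts are set beside their background and no test is made over them.

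**Figure D1:**
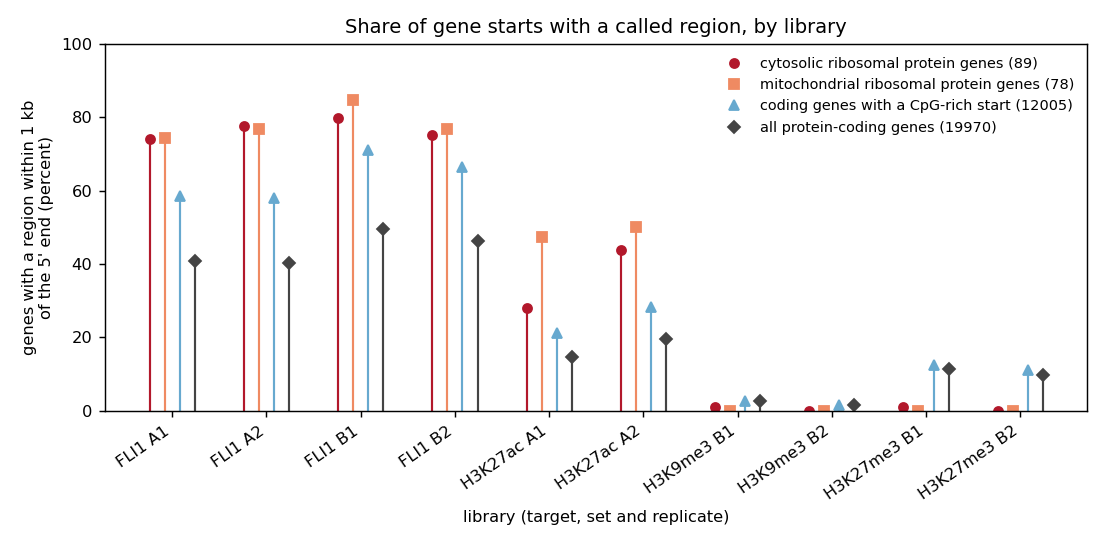
Percent of genes with a called region within 1 kb of the 5′ end in each of the 10 lists (x axis: target, set and replicate), for cytosolic ribosomal protein genes, mitochondrial ribosomal protein genes, coding genes with a CpG-rich start and all coding genes. In the 4 FLI1 lists the ribosomal protein genes sit between 74.2 and 79.8%, all coding genes between 40.4 and 49.7%, and in the H3K9me3 and H3K27me3 lists the ribosomal protein genes are at or near 0.

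In all 4 FLI1 lists together, 53 of the 89 genes had a region (59.6%, against 33.8% of all coding genes and 49.3% of those with a CpG-rich start). A further 13 genes had one in 3 lists (6.81% of all coding genes did), 9 in 2 (8.09%) and 4 in 1 (5.40%), the last being RPL5, RPS15A and RPL17 with its readthrough gene. RPL9, RPL10 and RPS29 were in both set A lists and neither of set B (3 genes, 1.09% of all coding genes), and RPL13, RPL21, RPS28 and RPS4X the other way round (4 genes, 5.55%). No list held one for 10 genes (11.2%, against 45.9% of all coding genes). By subunit, 29 of 46 large-subunit and 19 of 31 small-subunit genes were in all 4 lists (63.0 and 61.3%), with 5 of 8 paralogs and 0 of 3 readthrough genes.

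The choice of start mattered for a few genes. The MANE Select start lay more than 1 kb inside the annotated gene for 9 of the 89 (RPL10, RPL22, RPL36, RPL39L, RPL3L, RPL4, RPL6, RPL7 and RPS29). RPL10 and RPS29, listed in set A alone at the 5′ end, were in all 4 lists at their MANE Select starts. Around MANE Select starts, 60 genes (67.4%, against 35.4% of all coding genes) had a FLI1 region in all 4 lists, 34 of the large and 20 of the small subunit and 6 paralogs. Only 6 genes (6.74%, against 43.3%) then had none, among them RPL14, RPL23, RPL10L, RPL3L and RPSA2.

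**Figure D2:**
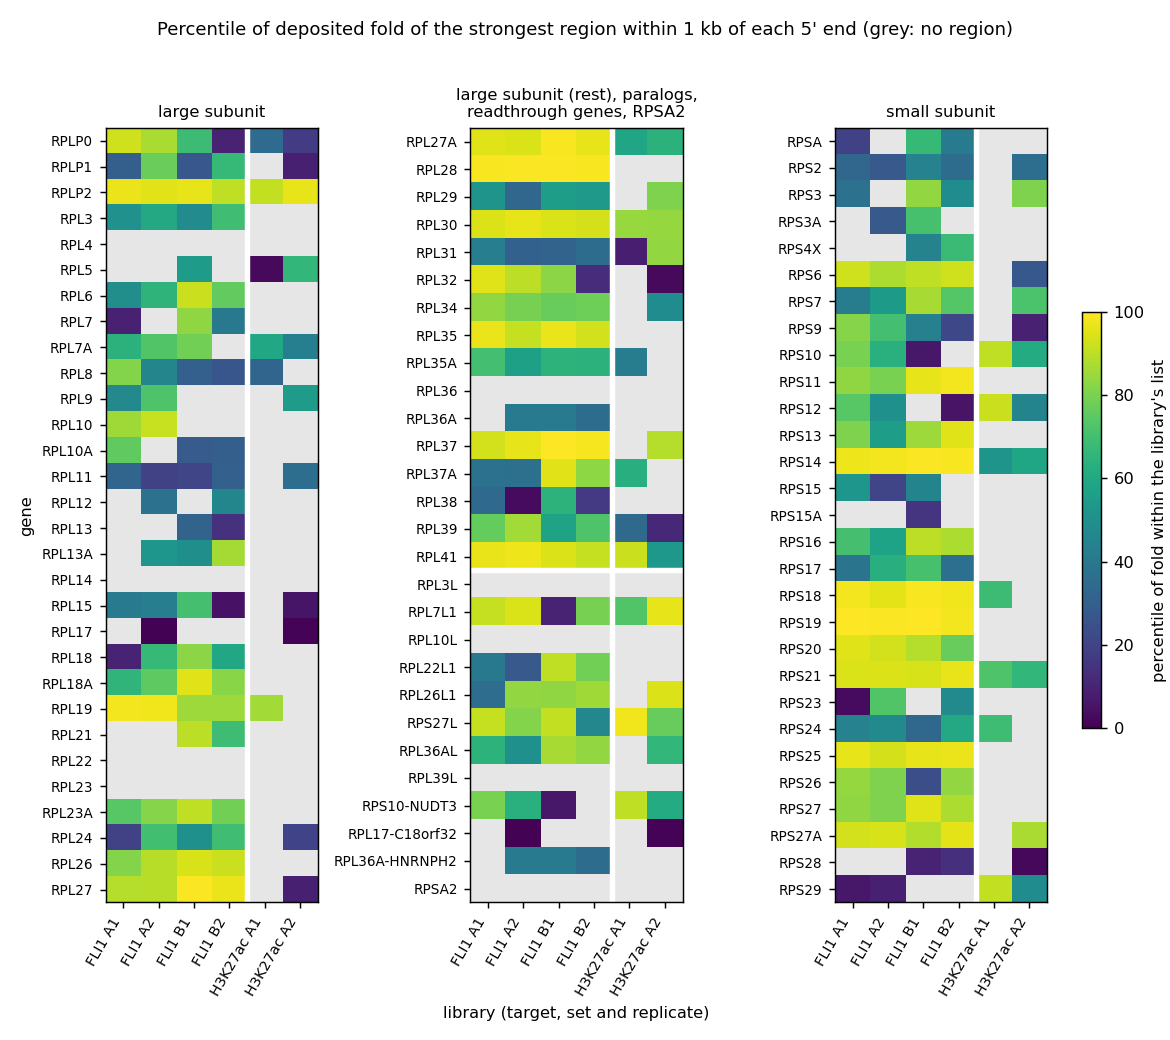
Percentile of deposited fold, within each library's own list, of the strongest region within 1 kb of the 5′ end of ribosomal protein genes (rows) in the 4 FLI1 and 2 H3K27ac lists (columns). Yellow rows such as RPS19, RPL28, RPS14 and RPS18 rank near the top of all 4 FLI1 lists, and grey marks a gene with no region there.

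The strength of a region is given by the fold over IgG that the authors' peak caller deposited. Since fold depends on each library's depth, it is ranked within its list, so that a percentile of 90 means a higher fold than 90% of that library's regions. The median percentile of the ribosomal protein regions was 76.0, 72.4, 82.5 and 74.9, against 72.8, 74.1, 74.7 and 68.8 over all coding genes with a region. The difference between the means (76.4 ± 4.31 and 72.6 ± 2.64, SD, n = 4) was smaller than the spread of the ribosomal protein genes between libraries but larger than that of all coding genes. The genes thus stood further from other coding genes in how many had a region than in how those regions ranked. Between 17 and 24 genes a list had a region above the 90th percentile, 30.3, 24.6, 33.8 and 26.9% of those with a region, against 21.6, 22.7, 24.8 and 19.96% over all coding genes.

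RPS19, whose loss of one copy causes Diamond-Blackfan anaemia, had the highest mean percentile of FLI1 fold of the 89 genes (99.3). Its folds were 124, 103, 58.6 and 33.6, and the summits, the points of highest signal, lay at -302, -293, -305 and -305 bases (negative is upstream) from the start at chr19:41860255. RPL28, a large-subunit protein gene on the same chromosome, came next, with folds of 78.5, 83.5, 55.1 and 37.8 and summits from -363 to -316 bases. For both, set A folds exceeded set B folds in every library, while percentiles stayed above 98 in all 4 lists.

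RPS14, whose loss of one copy underlies the anaemia of the myelodysplastic 5q- syndrome, had folds of 40.7, 50.6, 53.8 and 40.7, with summits from -183 to -156 bases. Those of RPS18 were 50.6, 30.6, 44.9 and 31.5. RPS18 starts 199 bases from the divergent start of VPS52, so its region cannot be assigned to one of the 2 genes. In the order RPS19, RPL28, RPS14, RPS18, the percentiles of neighbours overlapped over the libraries.

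RPL37, a large-subunit protein, had folds of 23.0, 32.8, 59.5 and 37.2, and its strongest summit changed side: 170 bases downstream of the start in each set A list, but at -216 and -224 bases in set B. The other genes of the leading 10, ranked at the 5′ end of the gene record, were RPL27A, RPS25, RPL41, RPLP2 and RPS21, with folds from 18.1 to 47.4. RPS21 varied least among these, with 26.2, 25.4, 23.9 and 26.5. At its MANE Select start RPL6 had a mean percentile of 95.5, above RPL41 (95.0), RPLP2 (94.9) and RPS21 (94.9), but 70.8 at the 5′ end. RPL27A (127 bases from the start of TRIM66) and RPS25 (423 bases from TRAPPC4) also face a divergent coding gene.

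**Figure D3:**
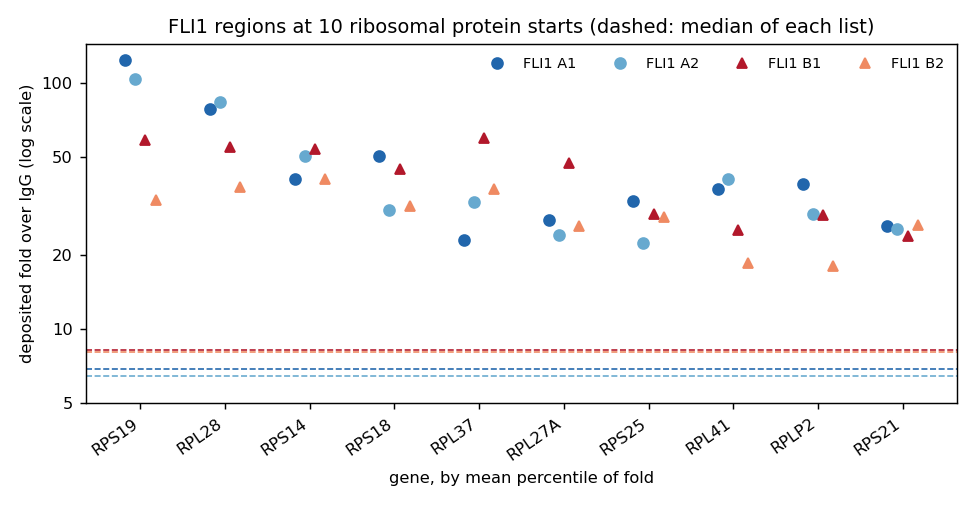
Deposited fold over IgG (log scale) of the strongest FLI1 region within 1 kb of the 5′ end of the 10 ribosomal protein genes with the highest mean percentile, in set A (circles) and set B (triangles), with the median fold of each list as a dashed line. All 40 points lie above the list medians of 6.46 to 8.20, which follows from choosing the genes by their ranks in these lists.

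Sequence at the summits differed among these genes. The 81 bases centred on one summit of each are printed below, with every GGAA or TTCC, the shortest ETS-like core, in capitals. At RPS19 the tandem pair of TTCC lay inside the 81 bases in all 4 lists. At RPL28 the 81 bases held neither GGAA nor TTCC in any of the lists. At RPS14 they held 1 TTCC in replicate 1 of each set and neither word in replicate 2 of each set. How often such short words lie at other summits was not counted. The upstream and downstream summits of RPL37 are both shown.
RPS19, set B replicate 1, chr19:41859910-41859990, plus strand: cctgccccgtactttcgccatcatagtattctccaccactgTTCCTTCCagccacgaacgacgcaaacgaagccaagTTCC
RPL28, set A replicate 1, chr19:55385576-55385656, plus strand: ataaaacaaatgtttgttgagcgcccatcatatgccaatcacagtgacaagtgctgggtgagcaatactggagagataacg
RPS14, set A replicate 1, chr5:150449858-150449938, minus strand: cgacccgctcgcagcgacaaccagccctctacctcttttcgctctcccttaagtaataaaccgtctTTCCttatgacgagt
RPL37, set A replicate 1, chr5:40835012-40835092, minus strand: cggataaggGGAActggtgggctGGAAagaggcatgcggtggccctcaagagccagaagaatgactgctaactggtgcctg
RPL37, set B replicate 1, chr5:40835398-40835478, minus strand: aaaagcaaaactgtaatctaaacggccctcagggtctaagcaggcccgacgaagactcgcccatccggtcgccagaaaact

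The P stalk, the flexible arm of the large subunit that recruits translation factors, had FLI1 regions at all 3 of its genes in all 4 lists, but of unequal strength. RPLP2 had folds of 38.8, 29.3, 29.1 and 18.1. RPLP0 had folds of 22.3, 15.2, 10.8 and 4.95, which are percentiles of 92.7, 87.3, 68.6 and 9.44, so both set A libraries ranked it above both of set B. RPLP1 had 5.59, 10.6, 6.35 and 10.2, with its summit at -614 and -556 bases for set A but 97 and 71 bases downstream for set B. Of the 53 genes in all 4 lists, RPLP0 had the largest excess of set A over set B, with mean percentiles of 89.99 and 39.0.

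RPL5 and RPL11 form, with 5S rRNA, the particle that restrains MDM2 when ribosome assembly fails. RPL11 had a region in all 4 lists, but a weak one, with folds of 5.71, 4.83, 5.93 and 6.57, below the median of every list. RPL5 was listed only in set B replicate 1, at a fold of 8.79, and its nearest region in the other lists was at least 46352 bp away. RPL26, which binds the p53 message, had 12.8, 17.0, 23.7 and 19.3. RPL23, which also binds MDM2, had none within 1 kb, and its nearest regions were 1351 and 1559 bp away in set B and 13908 and 13896 bp in set A. RPL13A, released from the ribosome to silence inflammatory messages, was listed in 3 lists at 6.77, 8.13 and 15.6, with none in set A replicate 1.

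In the small subunit, RPS6, the substrate of S6 kinase, had folds of 22.8, 15.6, 19.7 and 20.2 and summits from -230 to -200 bases. RPS3, at the messenger entry channel, and RPSA, also known as the laminin receptor, were each listed in 3 lists and missed in set A replicate 2. Their folds were 5.97, 15.4 and 7.95 for RPS3 and 4.95, 10.5 and 7.26 for RPSA.

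In 3 cases a pair of ribosomal protein genes shares a start, so each holds 1 region and not 2: RPS10 and RPS10-NUDT3 (2 bp apart), RPL17 and RPL17-C18orf32 (29 bp) and RPL36A and RPL36A-HNRNPH2 (187 bp). RPS10 had 12.2, 7.85 and 4.79 in the first 3 lists and none in the last. RPL17 was listed only in set A replicate 2, at 3.11, the lowest fold of any ribosomal protein region in that list. RPL36A had 5.95, 7.34 and 6.80 in all lists but set A replicate 1.

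The paralogs, which are mostly expressed in restricted tissues or encode variants of a core protein, ranged as widely. RPL10L and RPL3L, known as testis and striated-muscle forms, had no FLI1 region at either start. RPL10L lay at least 1515604 bp from the nearest one in every list, while its parent RPL10 had folds of 17.3, 12.2, 8.49 and 3.94 at its MANE Select start. RPL3, the parent of RPL3L, had 6.92, 7.44, 7.93 and 10.6 there. The 1000 bases around the RPL3L start were the only ones among the 89 MANE Select starts that were not CpG-rich, with a ratio of 0.172.

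RPL39L, another form known from the testis, was listed in no list at the 5′ end of the gene record but in all 4 at its MANE Select start, with folds of 24.7, 17.9, 25.3 and 12.3, above those of its parent RPL39 (11.005, 14.5, 8.99 and 11.1) in 4 of 4 lists. RPL22L1, the paralog of RPL22, had folds of 6.17, 5.20, 19.7 and 12.6 at its 5′ end, higher with set B. RPL22 itself had 7.15, 5.54, 9.24 and 7.03 at its MANE Select start. RPL7L1, a pre-ribosome assembly protein, had 20.05, 25.002, 5.12 and 12.97, and RPL7, which it resembles, had 34.3, 31.0, 15.2 and 7.21 at its MANE Select start.

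RPL26L1 had 5.81, 13.2, 15.2 and 15.1, with summits 735 to 744 bases inside the 5′ end, which is 40 to 49 bases beyond its MANE Select start. RPS27L, known as a p53 target, had 19.8, 11.98, 20.3 and 7.72, and RPS27 had 13.6, 11.6, 26.03 and 16.2. RPL36AL, which faces MGAT2 at 173 bases, had 8.54, 6.51, 17.1 and 14.4.

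Ranks were closer between replicates than between the sets. Over the 60 genes with a region in all 4 lists at the MANE Select start, Spearman's rho of fold percentiles was 0.88 and 0.77 between replicates and 0.58 to 0.65 between sets, which describes genes that share libraries and carries no test. Over the 7072 coding genes with such regions it was 0.83 and 0.66 between replicates and 0.48 to 0.52 between sets, the same order. Of the 53 genes in all 4 lists at the 5′ end, both set B percentiles lay above both set A percentiles in 19 (35.8%, against 30.7% of the coding genes in all 4 lists), below them in 11 (20.8%, against 22.7%), and overlapped them in 23. RPL37A (mean percentile 37.4 for set A, 89.3 for set B) and RPL22L1 (34.2 and 84.5) were the furthest above. With 2 libraries a set, an exact permutation test cannot go below 0.333, so the sets are compared by values alone.

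FLI1 summits mostly lay on either side of the start, not on it. Positions are measured from MANE Select starts, along the direction of transcription. Between 34 and 44 genes a list had their strongest summit more than 100 and up to 350 bases upstream, 48.6, 59.5, 49.4 and 49.3% of the genes with a region, against 37.4, 38.5, 37.3 and 38.3% over all coding genes. From 19 to 27 had it from 26 to 200 bases downstream, 27.1 to 37.0% against 25.5 to 32.5% over all coding genes, which is near the background. In the band between, from 100 bases upstream to 25 downstream, there were 3, 1, 7 and 5, and 3.15, 3.89, 9.83 and 9.75% of the coding genes with a region. The region as a whole nevertheless covered the start in 45 of 70, 43 of 74, 64 of 77 and 61 of 73 genes (64.3, 58.1, 83.1 and 83.6%), and in 57.1, 55.4, 75.7 and 78.2% of the coding genes with a region.

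**Figure D4:**
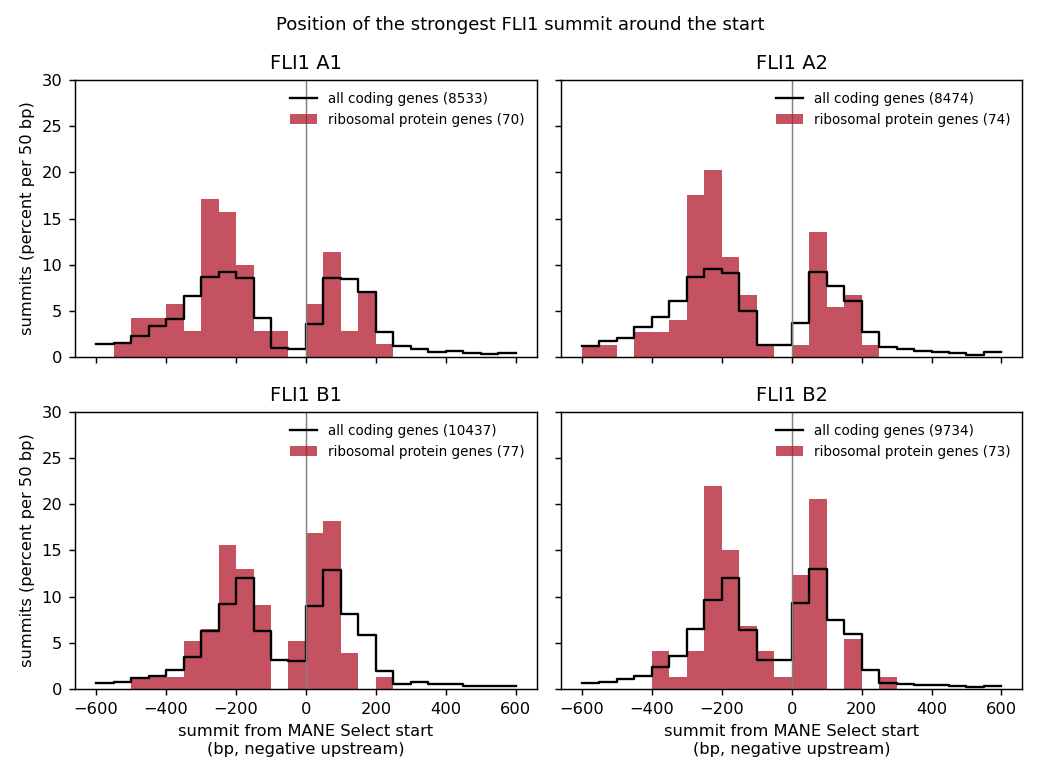
Position of the strongest FLI1 summit relative to the MANE Select start (x axis, bp, in bins of 50) as a percent of all genes with a region (y axis), for ribosomal protein genes (bars) and all coding genes (line) in each FLI1 list. Both show a peak on either side of the start, and the upstream peak of the ribosomal protein genes is higher than the line in each list. Their bar from 50 to 100 bases downstream is also higher (11.4, 13.5, 18.2 and 20.5%, against 8.63, 9.17, 12.9 and 13.0%). The bar from 100 to 150 bases is lower than the line in each list.

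Measured from the 5′ end of the gene record, the median summit lay at -127.5 and -150 bases in the lists of set A. In those of set B it lay 31 and 27 bases downstream. Over all coding genes with a region the medians lay 51, 39, 52 and 49 bases downstream. Few summits lay near the start, so the side of the median follows the share of summits upstream. That share was 57.6, 60.9, 46.5 and 44.8%, against 47.0, 47.9, 43.0 and 43.4% over all coding genes. From the MANE Select start all 4 medians were upstream, at -216.5, -206.5, -138 and -144 (-171, -170, -82 and -94 over all coding genes). Of the 60 genes with a region in all 4 lists, the strongest summit was upstream in every list for 31, among them RPS19, RPL28, RPS14, RPS6 and RPL26 (51.7%, against 42.3% of coding genes), and downstream in every list for 12 (20%, against 25.3%), among them RPL11, RPL27A and RPS27.

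The ETS sequence CCGGAAGT, on either strand and from 250 bases before to 50 after the MANE Select start, was present at 13 of the 89 genes (14.6%, against 6.16% of all coding genes). The shorter core CCGGAA, which the first contains, was present at 49 (55.1%, against 22.8%). Matches were found from 150 to 51 bases upstream at 20 genes (22.5%, against 8.36%) and in the last 50 bases upstream at 20 (22.5%, against 8.63%). They also lay from 250 to 151 bases upstream at 11 (12.4%, against 5.51%) and from 0 to 50 downstream at 13 (14.6%, against 5.05%). The share was thus above that of all coding genes in every part of the window. Runs of 4 GGAA, the repeat that EWSR1::FLI1 is known to bind at distal sites, were at none of the 89 (0.02% of all coding starts). These are matches of letters and not shown sites.

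All 13 genes with CCGGAAGT had a FLI1 region in all 4 lists at the MANE Select start, and 47 of the 76 without it did (61.8%). Over all coding genes these shares were 84.7% with and 32.2% without. With the shorter core, 38 of 49 genes were in all 4 lists, and 22 of 40 without it, against 63.3 and 27.2% of coding genes. The median of the mean fold percentile was 90.9 for the 13 and 71.4 for those without that were in all 4 lists. Over all coding genes in all 4 lists it was 87.9 with CCGGAAGT and 72.1 without, a similar contrast.

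The matches of 10 of these 13 genes are printed below with 16 bases on each side and the 8 letters in capitals, to show where they lie. RPL31 and RPS25 are among the others. The number after the strand is the distance of the match's centre from the MANE Select start, negative upstream.
RPL19, chr17:39200017-39200056, plus strand, -246: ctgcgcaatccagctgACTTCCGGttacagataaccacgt
RPL26L1, chr5:172959408-172959447, plus strand, 4: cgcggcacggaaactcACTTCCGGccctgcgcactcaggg
RPL27A, chr11:8682711-8682750, plus strand, -61: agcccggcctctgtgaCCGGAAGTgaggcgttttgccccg
RPL32, chr3:12841593-12841632, minus strand, -47: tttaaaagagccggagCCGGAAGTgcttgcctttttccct
RPL7L1, chr6:42879584-42879623, plus strand, -12: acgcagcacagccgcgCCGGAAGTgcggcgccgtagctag
RPLP2, chr11:809742-809781, plus strand, -205: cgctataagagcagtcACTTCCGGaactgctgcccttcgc
RPS14, chr5:150449763-150449802, minus strand, -43: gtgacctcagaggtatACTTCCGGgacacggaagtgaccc
RPS18, chr6:33271922-33271961, plus strand, -133: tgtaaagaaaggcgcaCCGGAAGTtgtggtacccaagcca
RPS27L, chr15:63157473-63157512, minus strand, -15: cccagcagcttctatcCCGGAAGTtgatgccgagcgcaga
RPS6, chr9:19380317-19380356, minus strand, -100: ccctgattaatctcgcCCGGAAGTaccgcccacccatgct

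The match and the summit rarely coincided. The median distance between them was 128, 144, 104 and 118 bases over the 13 genes, and it was 51 to 200 bases at 11 of 13 in each list. Only RPL26L1 had the match within 50 bases of the summit in all 4 lists (45, 37, 36 and 36 bases). Over all coding genes with both, the median was 163, 154, 131 and 130 bases. The distance was 51 to 200 bases at 65.7, 67.5, 74.0 and 75.9% of them, beside 84.6% of the 13 in each list. It was at most 50 bases at 3.21, 3.28, 9.52 and 8.57% of coding genes with both. Around the summits themselves, CCGGAA lay within 50 bases at 6 of 70, 5 of 74, 6 of 77 and 6 of 73 ribosomal protein genes, 6.76 to 8.57%, and at 6.68 to 9.13% of summits over all coding genes.

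Other start sequences were mixed. A TOP start, read as C followed by at least 4 C or T bases, stood at the annotated MANE Select base of 61 of the 89 genes (68.5%, against 4.58% of coding genes). A FLI1 region in all 4 lists was present at 44 of the 61 with it (72.1%, against 46.1% of coding genes with it) and 16 of the 28 without it (57.1%, against 34.9%). AAGATGGC, the YY1 sequence, was found at 11 (12.4%, against 4.08%), GGGCGG, the SP1 sequence, at 54 (60.7%, against 61.3%) and TATAAA at 8 (8.99%, against 9.72%), all on either strand. Measured from the 5′ end of the gene record in place of the MANE Select start, CCGGAAGT was at 9 genes (10.1%, against 5.11% of all coding genes), CCGGAA at 39 (43.8%, against 19.5%) and a TOP start at 23 (25.8%, against 3.19%).

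**Figure D5:**
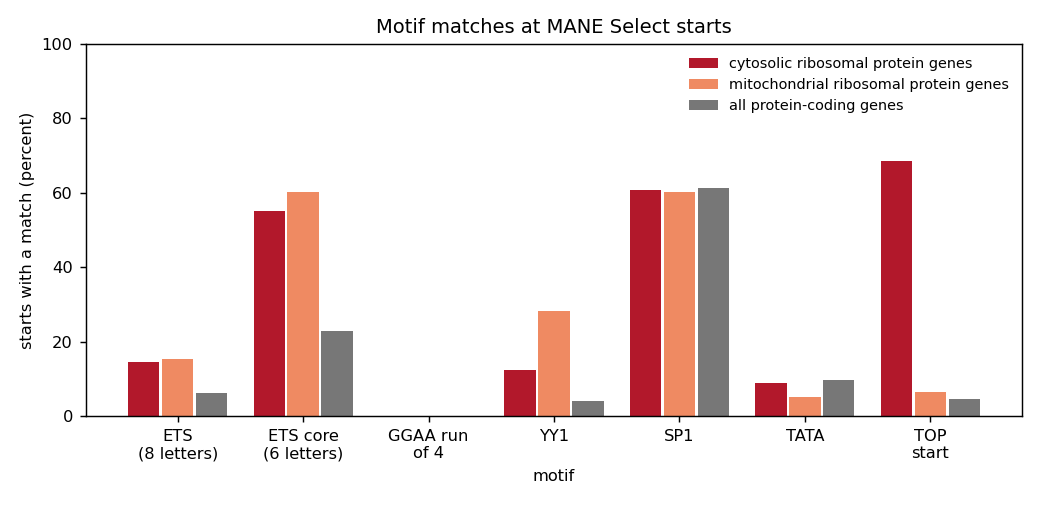
Percent of MANE Select starts with a match to each motif (x axis) for cytosolic ribosomal protein genes, mitochondrial ribosomal protein genes and all coding genes. The ETS core stands at 55.1% of the cytosolic genes and 22.8% of all coding genes, SP1 at 60.7 and 61.3%, and TOP starts at 68.5 and 4.58%.

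Many ribosomal protein genes carry small nucleolar RNA genes, which guide the modification of ribosomal RNA, in their introns. A small nucleolar RNA gene lay within the bounds of 29 of the 89, against 1.28% of all coding genes, and whether it was in an intron was not checked. FLI1 regions in all 4 lists (MANE Select starts) were present at 15 of these 29 hosts (51.7%, against 49.2% of all coding hosts) and at 45 of the 60 others (75%, against 35.2%). RPL23, in no list, is a host. A divergent coding start within 1 kb upstream was annotated for 14 genes (15.7%, against 9.52% of all coding genes). Of these, 10 were in all 4 lists (71.4%, against 74.2% of coding genes with such a partner), as were 50 of the other 75 (66.7%, against 31.3%).

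H3K27ac covered fewer of these starts, and the 2 replicates differed. A region within 1 kb of the 5′ end was listed for 25 genes in replicate 1 (28.1%, against 14.7% of all coding genes) and 39 in replicate 2 (43.8%, against 19.6%). Both lists shared 18 genes (20.2%, against 11.3%), and 46 were in either (51.7%, against 23.0%). Of CpG-rich coding starts, 16.5% were in both lists and 33.2% in either. The region covered the start in 4 of 25 and 4 of 39 genes (16 and 10.3%), beside 16.8 and 14.7% of the coding genes with a region. Their median fold percentile was 68.9 in replicate 1 and 53.4 in replicate 2, against 62.0 and 64.7 over all coding genes with a region, so that the replicates lay on opposite sides of the background.

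Among the 53 genes with FLI1 in all 4 lists, 12 had H3K27ac in both lists (22.6%, against 23.9% of all coding genes with FLI1 in all 4) and 34 in either (64.2%, against 47.5%). RPS19 and RPL28, the leading FLI1 genes, had none within 109274 and 101212 bp. RPLP2 had the highest H3K27ac ranks, with folds of 6.56 and 7.36 and percentiles of 90.9 and 96.4. RPS27L (7.60 and 5.69), RPL7L1 (5.60 and 7.30) and RPL30 (6.10 and 6.10), a protein of the large subunit, followed. RPL5 had H3K27ac in both lists (3.78 and 5.31) although FLI1 was listed there once.

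RPS10 (with its readthrough gene), RPL41, RPS29, RPS21 and RPS12 completed the leading H3K27ac genes, with folds between 4.79 and 6.62. The mark at RPS29 lay at the distal 5′ end of the gene record (6.56 and 4.84), where FLI1 was listed in set A alone (4.13 and 4.15). At its MANE Select start, 12784 bases downstream, the pattern was the reverse, with no H3K27ac and FLI1 folds of 6.99, 7.39, 9.99 and 10.1. No gene had H3K27ac in both lists and FLI1 in none (0.451% of all coding genes did).

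Few of these starts had a region of a repressive mark. RPSA2 was the only gene with an H3K9me3 region within 1 kb, in replicate 1 alone (chr19:23762225-23763581, fold 4.94). Of all coding genes, 2.60 and 1.53% had one in the lists of replicates 1 and 2, 2.73% in either and 1.39% in both. RPL38, a protein known for its part in translating Hox messages, was the only one with H3K27me3, also in replicate 1 alone. That region (chr17:74200856-74202819, fold 4.07) ended 763 bp upstream of the start and ranked at the percentile of 6.09. The shares of all coding genes were 11.5 and 9.80% in the lists of replicates 1 and 2, 11.8% in either and 9.47% in both. FLI1 was listed at RPL38 in all 4 lists (5.77, 3.68, 10.1 and 5.61) and at RPSA2 in none, where the nearest region was at least 75741 bp away.

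Other genes of the translation machinery were read the same way. FAU, which encodes a ribosomal protein fused to a ubiquitin-like one, was in all 4 FLI1 lists, and RACK1 of the small subunit in 3 (in all 4 at its MANE Select start). Of 18 translation factor and other TOP genes, 13 were in all 4 lists at the 5′ end and 17 at the MANE Select start. The exception at the MANE Select start was NPM1, the nucleolar chaperone. Of all coding genes, 33.8% were in all 4 lists at the 5′ end and 35.4% at the MANE Select start. EIF3L (25.9, 24.4, 33.4 and 29.9) ranked highest, with PABPC1 (20.8, 19.0, 20.4 and 20.9) and EEF1B2 (48.2, 19.2, 18.7 and 16.5). Of 20 nucleolar assembly and rRNA processing genes, 13 were in all 4 lists at the 5′ end and 17 at the MANE Select start, all but BOP1, PES1 and NOB1. NOP10, of the H/ACA particles, ranked highest, with 29.3, 33.2, 49.6 and 17.2. At MANE Select starts the mean share over the 4 lists was 95.8% of the 18 genes and 93.75% of the 20. It was 82.6% of the cytosolic ribosomal protein genes, so their share was not the highest, and 46.5% of all coding genes.

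The 78 mitochondrial ribosomal protein genes, which encode a separate ribosome and mostly lack TOP starts (5 of 78 had one), were in all 4 FLI1 lists at 46 of 78 (59.0%), beside 59.6% of the cytosolic ones. H3K27ac was listed for 30 of the 78 (38.5%) in both lists, against 18 of 89, and 46 of 78 (59.0%) in either, against 46 of 89. CCGGAA was present at 47 of 78 mitochondrial starts (60.3%), beside 55.1% of the cytosolic ones, and AAGATGGC at 22 (28.2%, beside 12.4%). Neither family had a gene with H3K9me3 or H3K27me3 in both lists.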

How the data were processed

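The deposited files are 10 peak lists, 1 for each antibody library. Adapter trimming, alignment, duplicate removal and peak calling used cutadapt 4.4, Bowtie2, Picard 2.17.11 and MACS2 2.1.1 on GRCh38/hg38, per the submitters' processing notes, which give no settings. Per the names in the files, peaks were called per library, with the equally numbered IgG library of that set as control, without duplicates and without pooling. The authors' values per region are a fold (ratio) over IgG and −log10 p-values and q-values, and they were used as deposited. No read totals were used, so depth is unknown, and a region that is not listed was not detected and is not shown to be absent. All regions end within hg38 chromosomes.

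Regions were matched to starts from GENCODE release 44. A start was called when a region overlapped the window of 1 kb on either side, and the region of highest fold percentile gave fold, rank and summit. The main start was the 5′ end of the gene record. Summit positions and motifs are given from MANE Select starts, or the 5′ end where there was none (3 of 89 genes). Sub-peaks of one region were read as 1 region. Counts stand beside all 19970 coding genes, with no test over the members, and the members and lists were chosen with earlier results of these data known. The CpG-rich background, the 6-letter core and the distances of matches from summits were added after the data were seen. Genes named in full were the 10 with the highest FLI1 and H3K27ac ranks, those with no FLI1 or any repressive mark, 14 chosen by role, the paralogs and the readthrough genes. Others were named for illustration after their values were seen. The calls were tested on simulated data: 200 of 200 planted regions were found at their start among 19970 genes, each with the right distance. Alternatives covered the window, the start, the strength and overlap of regions, the members, the rank measure and each replicate. Python 3.11.15, numpy 2.4.6, scipy 1.17.1, pandas 2.3.3 and matplotlib 3.10.9 were used. Some genes are counted but not reported by name here. IgG libraries were not analysed here on their own.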

Additional observations from a re-analysis of the deposited data

Results flagged for a closer look

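In 25 quantities measured in the 4 FLI1 libraries, a single library stood apart in 2, where chance alone puts about 1 in 20. For RPL26L1 the fold percentile in set A replicate 1 was 35.7, and 83.9, 83.4 and 85.7 in the other libraries (gap over range 0.954). For RPS19 it was 98.2 in set B replicate 2 and 99.5 to 99.7 in the others (gap over range 0.846). The median FLI1 summit, measured from the 5′ end of the gene record, lay upstream in both set A lists and downstream in both set B lists, a difference of -167.75 bases between the means of the sets (-138.75 and 29). This difference was not tested. From MANE Select starts all 4 medians were upstream.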

How the results depend on the processing

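Of 71 recomputed values, 56 stayed within the spread between libraries or within 1.5 times the reported count. The mean FLI1 share (76.7%) is followed here by that of all coding genes in brackets. It was 84.3% within 5 kb (50.1%), 82.6% at MANE Select starts (46.5%) and 82.6% at any coding transcript start (49.4%). With the more significant 50% of each list it was 56.7% (33.7%), and with 1 library left out 75.7 to 77.5% (42.5 to 45.6%). It stayed above the share of all coding genes in all 12 settings. The count in all 4 lists (53) was 34 with the more significant 50% (4520 of the 19970 coding genes). It was 55 to 57 with 1 library left out (6833 to 7261 coding genes), which can only keep or raise this count. As a percentage it was above that of all coding genes in all 12 settings. H3K27ac in both lists (18) was 9 within 500 bp (1433 of all coding genes), 9 with the more significant 50% (1168) and 46 in either list (4594). Without replicate 1 it was 39 (3924) and without replicate 2 it was 25 (2926), which are the counts of the single list that remains. As a percentage it was above that of all coding genes in all 11 settings. H3K9me3 in both lists (0) was 3 within 5 kb (RPL11, RPS10 and RPS10-NUDT3, the last of which share a start). It was 1 in either list and 0 to 1 with 1 replicate left out. Of the 19970 coding genes, 1059 were in both lists within 5 kb and 546 in either list within 1 kb. H3K27me3 (0) was 1 in either list (2355 of all coding genes) and 0 to 1 with 1 left out. The median FLI1 percentile was 74.4 to 77.8 and that of H3K27ac 53.4 to 68.9 with 1 left out. The median summit (-54.875 bases, mean over lists, against 47.75 over all coding genes) was -176.25 from MANE Select starts (against -129.25). It was -83.5 to -23.2 with 1 library left out. Why these values moved was not tested. No paired analysis was possible because none of these results comes from a test between groups that share replicate numbers. The lists hold no read totals, so depth cannot be weighed against missing regions. Regions between divergent genes cannot be assigned to one of them.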
